A study of Mus musculus with 16 samples.

Results

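The genes described here set the pace of the G1 phase of the cell cycle: the D cyclins Ccnd1, Ccnd2 and Ccnd3, the E cyclin Ccne1, the kinases Cdk4 and Cdk6, and the inhibitors of cyclin-dependent kinases (CDKs) Cdkn1a, Cdkn1b, Cdkn2c and Cdkn2d. They were chosen by symbol from a list of G1 regulators. All 10 were found among the 23234 named genes of the deposited table, and 9 of them were among the 11266 genes with enough signal to be tested. RNA was sequenced from 16 libraries of mouse splenic B cells sorted on day 10 of an immune response. All donor cells were C57BL/6 with the genotype Bcl6-YFP(KI/+) B1-8hi(KI/+), that is, heterozygous for a fluorescent reporter of Bcl6 and for a heavy chain knock-in whose receptors bind the hapten NP. Naive donor cells were placed in wild-type CD45.1+ recipients, which received NP-CGG in alum on day 0. Spleens of 9 recipients were pooled before sorting, and no label says that the libraries of a gate came from separate pools, so p-values measure the spread between libraries, which may be technical.

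Cells of all 6 groups were CD45.2+ donor cells that bound NP, carried IgG1 and lacked CD138, a plasma cell marker. LZ (3 libraries) was the whole light zone gate of the germinal centre, CD38-, CD86hi and CXCR4lo. Fraction 2 (2 libraries) and Fraction 3 (3 libraries) were its Bcl6-YFPhi cells, CD69hi in the first and CD69lo in the second, named in the labels as recycling-prone and under selection. The LZ gate as described takes in both. Fraction 5 (3 libraries, pro-memory), Fraction 6 (2 libraries, pre-memory) and Fraction 7 (3 libraries, mature memory) were CD38+ and GL7-. Of these, Fraction 5 was Bcl6-YFPhi and Efnb1hi, Fraction 6 was Bcl6-YFPlo and Efnb1hi, and Fraction 7 was low for both. The single time point orders these gates by surface phenotype, not by time.

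In G1, D cyclins bind Cdk4 or Cdk6 and phosphorylate the pocket proteins Rb1, Rbl1 and Rbl2, which releases E2F factors to switch on genes of DNA synthesis, and Ccne1 with Cdk2 completes the step. Inhibitors of the INK4 family, such as Cdkn2c (p18) and Cdkn2d (p19), bind Cdk4 and Cdk6 directly, whereas those of the CIP/KIP family, such as Cdkn1a (p21) and Cdkn1b (p27), bind cyclin-kinase complexes. Cyclin D3 is the D cyclin that germinal centre B cells rely on to divide, and cyclin D2 is the form that mature B cells induce on antigen receptor stimulation.

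Values are FPKM, fragments scaled by transcript length and library size, so that levels of different genes can be compared. Tests were made with limma on log2(FPKM + 1), a scale that understates changes of low genes, in 1 model over all 16 libraries. A gene was called changed at a Benjamini-Hochberg adjusted p under 0.05 over the genes that reached 1 FPKM in 2 or more libraries. Each change is given on that log2 scale with its standard error. FPKM summed to between 416741 and 492578 in a library, and sequencing depth relative to LZ library 1, read from the steps of low values, lay between 0.923 and 1.20, while the number of reads is unknown.

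All 5 B cell markers were present in each group. The summed FPKM of 7 germinal centre markers was 724 to 983 over the 11 libraries that were not from Fraction 6 or 7. It was 330.1 to 351 for Fraction 6 and 67.3 to 91.6 for Fraction 7. Among these 7 is Bcl6, whose reporter was gated as high in Fractions 2, 3 and 5 and as low in Fractions 6 and 7. Bcl6 alone was 189 ± 5.61 FPKM in Fraction 5, 72.8 ± 3.62 in Fraction 6 and 17.98 ± 2.77 in Fraction 7 (mean ± SD). Libraries 2 and 3 of Fraction 7 stood apart. They listed 6452 and 5000 genes at 0 FPKM against 8082 to 9245 in the other 14, and Sdc1, which encodes the CD138 that the gate excluded, was 4.44 and 4.51 FPKM there against 0.502 in library 1. Of 7 plasma cell markers, 6 were higher and 0 lower in Fraction 7 against Fraction 6, beside 7.37% and 13.9% of all tested genes. Against LZ, 4 were higher and 1 lower (Slamf7), beside 24.1% and 38%. Each of the 7 was at 1 FPKM or more in at least 1 library of Fraction 7. The sum of those markers was 118 to 414 FPKM in Fraction 7, 74.2 to 87.5 in Fraction 6 and 156 to 244 in the 4 remaining groups, in which Fkbp11 (Fraction 2) and Tnfrsf17 (Fraction 5) were at 0. The summed level of 6 monocyte markers was 13.4 to 17.2 FPKM in Fraction 7, mostly Itgam, against at most 7.89 elsewhere. Cd14 was at 0 in Fraction 7. Of the 3 that could be tested, 2 were higher (Itgam, Emr1) and 0 lower in Fraction 6 against Fraction 5, beside 7.07% and 10.4%. In Fraction 7 against Fraction 6, 1 was higher (Itgam) and 0 lower, beside 7.37% and 13.9%. Against LZ the counts were 2 and 0, beside 24.1% and 38%. Of 5 markers of naive and marginal zone B cells, 3 were higher and 0 lower in Fraction 6 against Fraction 5. Of all tested genes, 7.07% were higher and 10.4% lower there. In Fraction 7 against LZ the markers again gave 3 and 0, beside 24.1% and 38% of all tested genes. In Fraction 7 against Fraction 6, 3 were higher and 1 lower (Fcer2a, -0.75), beside 7.37% and 13.9%. The 5 markers summed to 632 to 669 FPKM in Fraction 6 and 561 to 653 in Fraction 7, against 446 to 551 in Fraction 5 and 305 to 414 in the light zone gates. Of 6 memory B cell markers, 5 were higher and 0 lower in Fraction 6 against Fraction 5, beside 7.07% and 10.4%. In Fraction 7 against Fraction 6, 2 were higher (Ccr6, Cd80) and 2 lower (Zfp318, Nt5e), beside 7.37% and 13.9%. Fraction 7 against LZ gave 5 higher and 1 lower (Nt5e), beside 24.1% and 38%. These 6 include Cd38, whose protein set LZ apart from Fraction 7 in the sort. The part of these cell types in the results for Fractions 6 and 7 was not tested, and the comparisons of Fraction 7 are given with and without its libraries 2 and 3 below. In sorted bulk samples, fewer cells of a type and less RNA per cell cannot be told apart.

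Between gates, the group mean of Ccnd3 ranged 7.85-fold, that of Ccnd2 8.70-fold, that of Cdkn2c 7.10-fold and that of Cdkn1b 4.99-fold. Ccnd3 and Cdkn2c were lowest in Fraction 7, and Ccnd2 and Cdkn1b were highest there. Cdk4 and Ccne1 stepped down already in Fraction 5, which keeps a high Bcl6-YFP signal, while Ccnd3 and Cdkn2c kept most of their light zone level there and stepped down in Fractions 6 and 7. Cdkn2d differed least, with a 1.59-fold range.

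**Figure D1:**
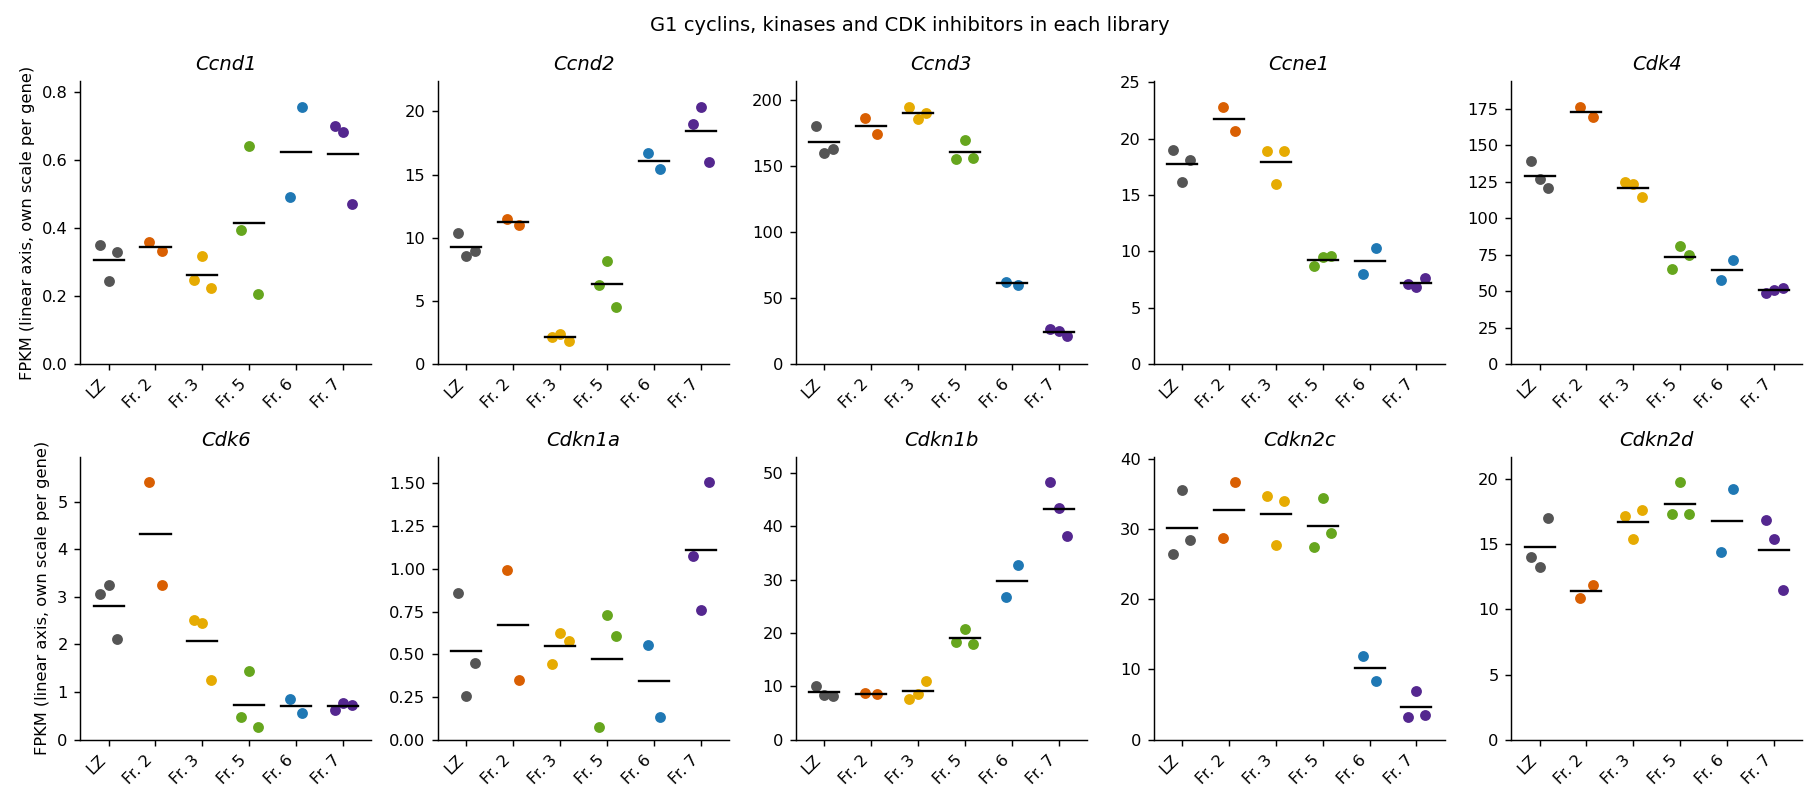
FPKM of each of the 10 genes in every library (points) by sorted group, with the group mean as a bar, on axes scaled per gene. Ccnd3 and Cdkn2c fall away in Fractions 6 and 7, Cdk4 and Ccne1 already in Fraction 5, and Cdkn1b climbs from Fraction 5 to Fraction 7.

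Ccnd3 was by far the most abundant D cyclin, at rank 482 of all named genes by mean level. It was 181, 160.2 and 163 FPKM in the 3 LZ libraries, 186 and 175 in Fraction 2, 195, 186 and 190.4 in Fraction 3, and 155, 169.9 and 157 in Fraction 5. It dropped to 62.2 and 60.02 FPKM in the 2 libraries of Fraction 6 and, in Fraction 7, to 26.3, 25.1 and 21.5. In the order of their means (Fraction 3, Fraction 2, LZ, Fraction 5) each of the first 4 groups overlapped the next, although Fraction 5 lay below all libraries of Fraction 3, and Fraction 6 and Fraction 7 each lay below every library of the groups before them. The log2 change was -1.38 ± 0.08 from Fraction 5 to Fraction 6 (adjusted p = 2.09e-07), -1.30 ± 0.08 from Fraction 6 to Fraction 7 (adjusted p = 3.19e-07) and -2.74 ± 0.07 from LZ to Fraction 7 (adjusted p = 1.13e-11). Fraction 5 was also lower than Fraction 3 by a small amount, with a change of -0.25 ± 0.07 (adjusted p = 0.0251), a call that quantile normalization ended (-0.07, adjusted p = 0.438). It also ended without library 1 or 3 of Fraction 3 (adjusted p = 0.0794 and 0.0575) and without library 1 or 3 of Fraction 5 (adjusted p = 0.0874 and 0.0761). Without libraries 2 and 3 of Fraction 7 the change from LZ was -2.63. The Ccnd3 exons overlap those of Bysl, a ribosome biogenesis gene on the other strand, in a library kit that keeps no strand. Bysl was far lower, between 5.97 and 25.1 FPKM, and was also lowest in Fraction 7.

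Ccnd2 showed another order. Its values were 10.4, 8.53 and 8.98 FPKM in LZ, 11.5 and 11.0 in Fraction 2, and 2.16, 2.42 and 1.79 in Fraction 3. They were 6.25, 8.13 and 4.55 in Fraction 5, 16.7 and 15.4 in Fraction 6, and 19.0, 20.4 and 15.96 in Fraction 7. Fraction 3 was lowest and did not overlap any other group, and the order upward was Fraction 5, LZ, Fraction 2, Fraction 6 and Fraction 7, with overlap only between Fractions 6 and 7. Ccnd2 was higher in Fraction 2 than in Fraction 3 by 1.97 ± 0.17 (adjusted p = 0.00011), in Fraction 5 than in Fraction 3 by 1.20 ± 0.15 (adjusted p = 8.23e-05), and in Fraction 6 than in Fraction 5 by 1.25 ± 0.17 (adjusted p = 0.000167). Fraction 5 was lower than Fraction 2, with a change of -0.77 ± 0.17 (adjusted p = 0.00237), and Fraction 7 was higher than LZ by 0.92 ± 0.15 (adjusted p = 0.000137). Fractions 6 and 7 differed by 0.18, which did not pass (adjusted p = 0.505). The gene 9330179D12Rik on the opposite strand reached at most 0.252 FPKM.

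Ccnd1 stayed below 1 FPKM in all 16 libraries, between 0.206 and 0.757, and was not tested. Groups next to each other in the order of their means overlapped, while Fractions 6 and 7 lay above all libraries of LZ, Fraction 2 and Fraction 3.

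The D cyclins together gave 178 ± 12.2 FPKM in LZ (mean ± SD), 192 ± 8.63 in Fraction 2, 193 ± 4.36 in Fraction 3 and 167 ± 9.85 in Fraction 5. Their sum was 77.8 ± 2.21 in Fraction 6 and 43.3 ± 4.70 in Fraction 7. Ccnd2 made up 1.101% ± 0.175 of that sum in Fraction 3, 3.74% ± 0.870 in Fraction 5, 5.23% ± 0.182 in LZ and 5.85% ± 0.0838 in Fraction 2. Its share was 20.6% ± 0.545 in Fraction 6 and 42.5% ± 1.45 in Fraction 7, above every library of the other groups. The level of Ccnd3 exceeded that of Ccnd2 91.2 ± 14.7-fold in Fraction 3 and 1.32 ± 0.0785-fold in Fraction 7. These shares rest on the 2 genes just tested and were given no test of their own.

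**Figure D2:**
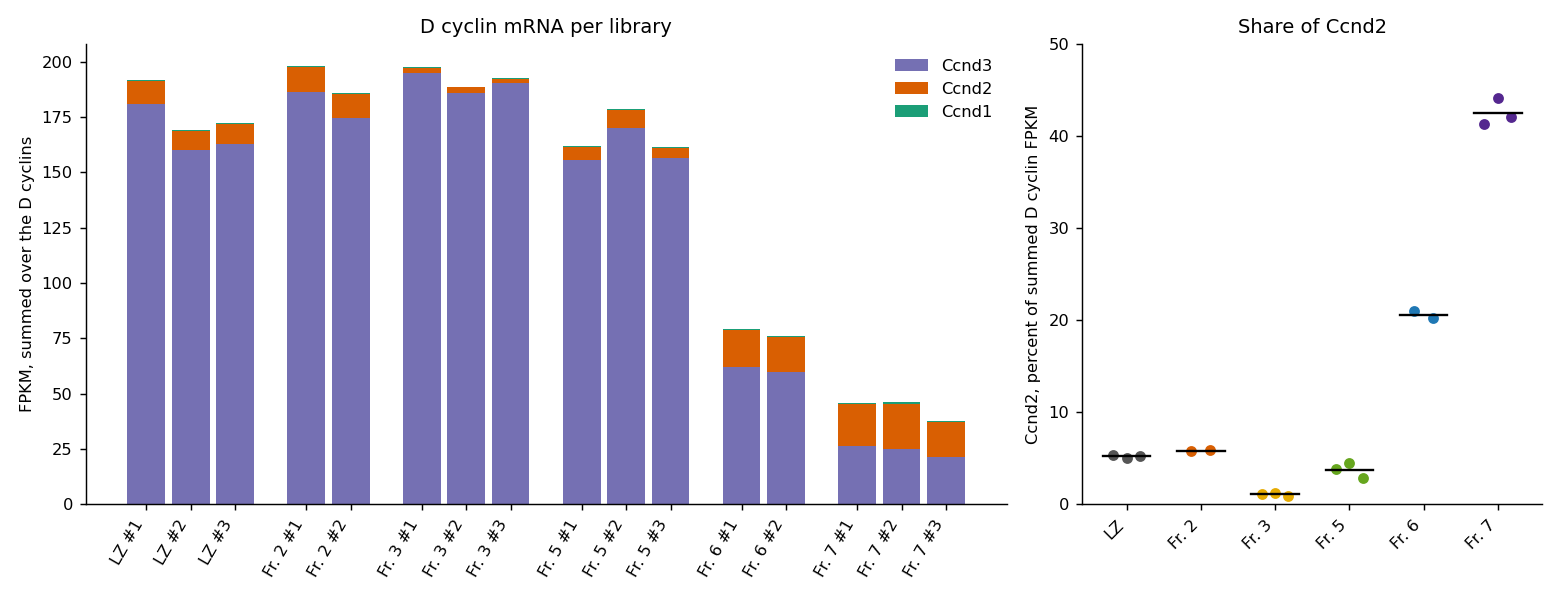
Left, stacked bars of the FPKM of Ccnd3, Ccnd2 and Ccnd1 in each library; right, the percent of their sum that is Ccnd2, with libraries as points and group means as black bars. The sum is 193 FPKM on average in Fraction 3 with 1.101% from Ccnd2, and 43.3 FPKM in Fraction 7 with 42.5% from Ccnd2.

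Ccne1, which drives Cdk2 at the end of G1, was 19.0, 16.1 and 18.1 FPKM in LZ, 22.8 and 20.7 in Fraction 2, and 18.9, 15.996 and 18.9 in Fraction 3. It was 8.70, 9.52 and 9.55 in Fraction 5, 7.97 and 10.3 in Fraction 6, and 7.11, 6.81 and 7.62 in Fraction 7. Fraction 2 lay highest, LZ and Fraction 3 overlapped, Fractions 5 and 6 overlapped at a lower level, and Fraction 7 lay lowest. Fraction 5 was lower than Fraction 3 (-0.88 ± 0.10, adjusted p = 3.75e-05) and than Fraction 2 (-1.15 ± 0.11, adjusted p = 3.32e-06), and Fraction 7 was lower than LZ (-1.19 ± 0.10, adjusted p = 1.71e-07). The values of -0.03 from Fraction 5 to 6 (adjusted p = 0.904), -0.30 from Fraction 6 to 7 (adjusted p = 0.0752) and 0.27 from Fraction 3 to 2 (adjusted p = 0.121) did not pass. Leaving out library 1 of Fraction 6 brought the step from Fraction 6 to 7 past the threshold (adjusted p = 0.0272).

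Cdk4, the more abundant of the kinases that bind D cyclins, was 139, 127 and 120.4 FPKM in LZ, 176 and 169 in Fraction 2, and 125, 124 and 114 in Fraction 3. It was 65.2, 80.7 and 74.7 in Fraction 5, 57.8 and 71.2 in Fraction 6, and 48.8, 50.9 and 52.2 in Fraction 7. Fraction 2 stood above every other library, LZ and Fraction 3 overlapped, as did Fractions 5 and 6, and Fraction 7 was lowest. Cdk4 was higher in Fraction 2 than in Fraction 3 by 0.51 ± 0.10 (adjusted p = 0.00503). It was lower in Fraction 5 than in Fraction 3 (-0.71 ± 0.09, adjusted p = 7.96e-05) and than in Fraction 2 (-1.23 ± 0.10, adjusted p = 1.01e-06). From Fraction 5 to 6 the value of -0.19 did not pass (adjusted p = 0.233). Fraction 7 was lower than LZ (-1.33 ± 0.09, adjusted p = 2.25e-08) and than Fraction 6 (-0.34 ± 0.10, adjusted p = 0.0292), the last a call that ended without libraries 2 and 3 of Fraction 7 (adjusted p = 0.0991). Without Fraction 6 library 2, which leaves 1 library in that group, the change was -0.19. That call also ended without Fraction 7 library 1 (adjusted p = 0.0658) or Fraction 7 library 2 (adjusted p = 0.0580). Quantile normalization (adjusted p = 0.126), median-ratio scaling (adjusted p = 0.0916) and a fit to only those 2 groups (adjusted p = 0.114) ended it too. Without library 1 of Fraction 2, the call against Fraction 3 ended (adjusted p = 0.0512). The exons of Cdk4 overlap those of Tspan31 on the other strand, which was between 9.96 and 35.5 FPKM and highest in Fraction 7, where Cdk4 was lowest.

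Cdk6, the related kinase, was scarce. It reached 1 FPKM in 9 libraries, those of LZ and Fractions 2 and 3 and library 2 of Fraction 5. It thus passed the expression filter through the gates where it was high, and its calls as lower rest on those gates. It was 3.06, 3.25 and 2.11 FPKM in LZ, 5.40 and 3.25 in Fraction 2, 2.51, 2.45 and 1.25 in Fraction 3, 0.483, 1.44 and 0.262 in Fraction 5, 0.864 and 0.562 in Fraction 6, and 0.631, 0.769 and 0.719 in Fraction 7. In the order of group means each group overlapped the next, although Fraction 2 lay above all libraries of Fraction 3. Cdk6 made up 0.349% to 2.97% of the summed Cdk4 and Cdk6 FPKM. It was lower in Fraction 5 than in Fraction 2 (-1.65 ± 0.28, adjusted p = 0.000295) and than in Fraction 3 (-0.86 ± 0.25, adjusted p = 0.0187), and lower in Fraction 7 than in LZ (-1.15 ± 0.25, adjusted p = 0.00113). The difference of 0.79 ± 0.28 between Fractions 2 and 3 did not pass (adjusted p = 0.0686). The call for Fraction 5 against Fraction 3 ended with only those 2 groups in the fit (adjusted p = 0.0735). Leaving out library 1 or 2 of Fraction 3 (adjusted p = 0.0743 and 0.0677) or library 1 or 3 of Fraction 5 (adjusted p = 0.0703 and 0.0827) also ended it.

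The promoters of the kinase genes are shown because Cdk4 levels moved with gates, and because the letters CACGTG, the E-box bound by Myc with Max, occur in both. RefSeq sequence of the 250 bases before the start is given on GRCm38.p6, a later build than that of the deposited values, with capitals marking CACGTG: Cdk4 at chr10:127063285-127063534 and Cdk6 at chr5:3343643-3343892, both on the plus strand. Of the 10 genes, 8 had a promoter entry (11 promoters, since some have 2 starts), and CACGTG, searched on both strands, which read the same for this motif, occurred in 2 of those 11.
Cdk4: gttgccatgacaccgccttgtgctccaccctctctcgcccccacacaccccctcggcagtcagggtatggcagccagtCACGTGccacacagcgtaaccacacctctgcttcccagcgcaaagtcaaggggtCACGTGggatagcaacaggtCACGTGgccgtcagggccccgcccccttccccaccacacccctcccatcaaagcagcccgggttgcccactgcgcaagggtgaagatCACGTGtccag
Cdk6: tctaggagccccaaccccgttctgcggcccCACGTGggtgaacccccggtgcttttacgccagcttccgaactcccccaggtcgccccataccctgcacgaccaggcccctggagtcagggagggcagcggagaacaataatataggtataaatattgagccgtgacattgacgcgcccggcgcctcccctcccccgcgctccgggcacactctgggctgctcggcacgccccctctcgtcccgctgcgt

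The Cdk4 promoter held 4 copies of CACGTG, with first bases at -172, -118, -98 and -11 from the start, and the Cdk6 promoter held 1. Of 32851 promoters of this length, 6.02% held the motif and 7, or 0.0213%, held at least 4 copies. The 7 belong to 5 genes. The count of 4 is that of Cdk4 itself, so its share is a description and no test. Among promoters of tested genes, 8.57% held the motif. A match describes letters and not binding.

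Cdkn1b, which encodes p27 and restrains cyclin E and Cdk2, was higher in the memory-side gates, in the order Fraction 5, 6 and 7. Its values were 10.1, 8.37 and 8.11 FPKM in LZ, 8.77 and 8.55 in Fraction 2, and 7.56, 8.66 and 11.0 in Fraction 3, with all 3 groups overlapping. They were 18.3, 20.7 and 18.007 in Fraction 5, 26.8 and 32.8 in Fraction 6, and 48.2, 43.4 and 38.1 in Fraction 7. Each of the 3 memory-side groups lay above all libraries of the groups before it. Fraction 5 exceeded Fraction 3 by 1.00 ± 0.13 (adjusted p = 9.57e-05) and Fraction 2 by 1.05 ± 0.15 (adjusted p = 6.43e-05), and Fraction 7 exceeded LZ by 2.17 ± 0.13 (adjusted p = 6.52e-09). The steps between memory-side gates were smaller, 0.62 ± 0.15 from Fraction 5 to 6 (adjusted p = 0.00902) and 0.52 ± 0.15 from Fraction 6 to 7 (adjusted p = 0.020). Both fell short of the threshold when 1 Fraction 6 library was left out (adjusted p = 0.124 without library 2, adjusted p = 0.197 without library 1), and the step from Fraction 6 to 7 also without Fraction 7 library 1 (adjusted p = 0.0603). Without Fraction 7 libraries 2 and 3 it was 0.68 (adjusted p = 0.0372), and the difference from LZ was 2.33.

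Cdkn1a, which encodes p21 and is a target of p53, was below 1 FPKM in 14 libraries. It was 1.08, 0.756 and 1.51 FPKM in Fraction 7, between 0.0754 and 0.996 in the other 13 libraries, and passed the expression filter only through Fraction 7. None of its changes passed, and the closest were 0.48 for Fraction 7 against LZ (adjusted p = 0.0823) and 0.65 for Fraction 7 against Fraction 6 (adjusted p = 0.0872). Groups next to each other in the order of their means overlapped, and Fraction 7 lay above all libraries of Fractions 3, 5 and 6.

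The ratio of Cdk4 to Cdkn1b, one being a kinase and the other an inhibitor of complexes downstream, was 14.6 ± 0.724 in LZ (mean ± SD), 19.9 ± 0.220 in Fraction 2 and 13.7 ± 3.11 in Fraction 3. It was 3.87 ± 0.298 in Fraction 5, 2.16 ± 0.0090 in Fraction 6 and 1.18 ± 0.179 in Fraction 7. In Fraction 7 the 2 transcripts were at similar levels, 1.01, 1.17 and 1.37 in its libraries.

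Cdkn2c (p18) and Cdkn2d (p19) parted. Cdkn2c was 26.4, 35.5 and 28.4 FPKM in LZ, 28.7 and 36.6 in Fraction 2, 34.7, 27.7 and 34.0 in Fraction 3, and 27.4, 34.3 and 29.4 in Fraction 5, which overlapped one another. It was 11.9 and 8.40 in Fraction 6 and 3.24, 7.00 and 3.54 in Fraction 7, each below all libraries of the groups before. The change was -1.51 ± 0.24 from Fraction 5 to 6 (adjusted p = 0.000557), -1.04 ± 0.24 from Fraction 6 to 7 (adjusted p = 0.00706) and -2.52 ± 0.21 from LZ to Fraction 7 (adjusted p = 2.16e-07). The second of these ended with only those 2 groups in the fit (adjusted p = 0.0865) and without Fraction 6 library 1 (adjusted p = 0.0972). Without Fraction 7 libraries 2 and 3 it was -1.38 (adjusted p = 0.00237), and the change from LZ was -2.86. Cdkn2c in Fraction 7 was highest in library 2, one of those that stood apart.

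Cdkn2d was 14.04, 13.2 and 17.0 FPKM in LZ, 10.9 and 11.9 in Fraction 2, 17.2, 15.4 and 17.7 in Fraction 3, and 17.3, 19.7 and 17.3 in Fraction 5. It was 14.4 and 19.2 in Fraction 6 and 16.9, 15.4 and 11.5 in Fraction 7. Fraction 2 lay below LZ and Fractions 3, 5 and 6 without overlap, and it overlapped Fraction 7, the next in the order of group means. It was lower in Fraction 2 than in Fraction 3 (-0.52 ± 0.15, adjusted p = 0.0377) and higher in Fraction 5 than in Fraction 2 (0.62 ± 0.15, adjusted p = 0.00499). The first call ended without any filter on low values (adjusted p = 0.0779) and without either Fraction 2 library (adjusted p = 0.188 without library 1 and 0.112 without library 2). It also ended without library 1 or 3 of Fraction 3 (adjusted p = 0.0855 and 0.109). The level of Cdkn2c exceeded that of Cdkn2d 2.08 ± 0.534-fold in LZ and 2.86 ± 0.316-fold in Fraction 2, and fell below it in Fractions 6 and 7, with ratios of 0.632 ± 0.276 and 0.319 ± 0.132. The INK4 pair summed to group means from 44.0 to 48.9 FPKM on the light zone side and in Fraction 5, to 26.96 in Fraction 6 and to 19.2 in Fraction 7.

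**Figure D3:**
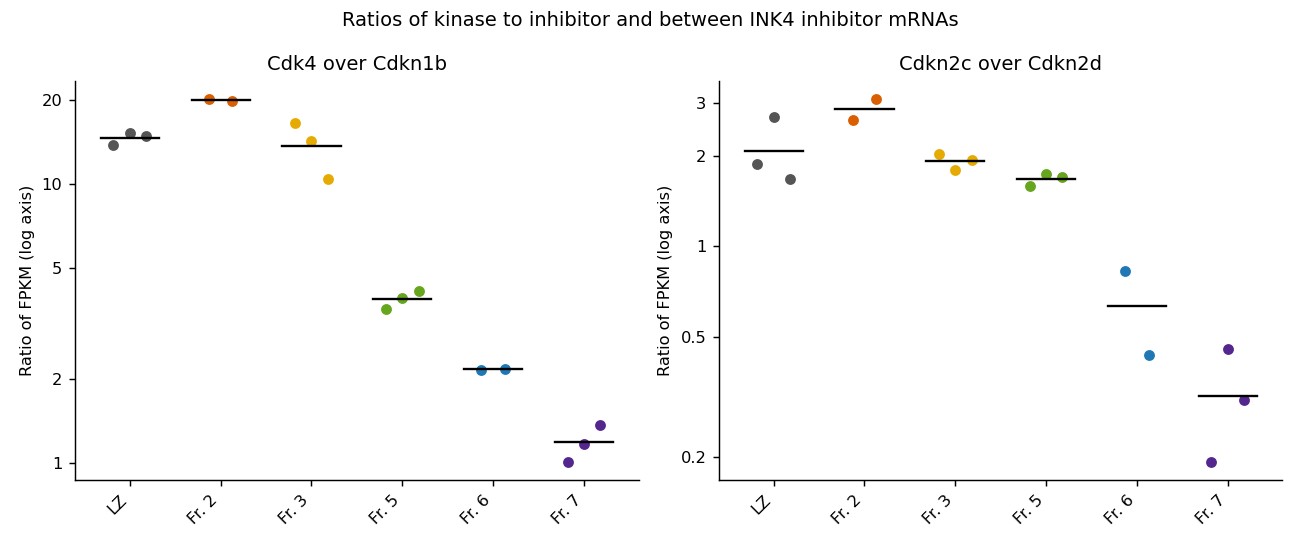
Ratio of Cdk4 to Cdkn1b (left) and of Cdkn2c to Cdkn2d (right) in FPKM, on log axes, with libraries as points by sorted group and group means as black bars. The ratio of Cdk4 to Cdkn1b goes from 19.9 in Fraction 2 to 1.18 in Fraction 7, and that of Cdkn2c to Cdkn2d from 2.86 to 0.319.

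Promoters of Ccnd3 and Cdkn2c are shown because both genes fell in Fractions 6 and 7 and each holds a letter match of a factor type named for G1 genes. Capitals mark TGTTTAC, the reverse complement of the forkhead motif GTAAACA, in Ccnd3 (RefSeq, GRCm38.p6, chr17:47504801-47505050, plus strand, the first of 2 starts) and the E2F motif TTCCCGC in Cdkn2c (chr4:109666757-109667006, minus strand, the first of 2 starts).
Ccnd3: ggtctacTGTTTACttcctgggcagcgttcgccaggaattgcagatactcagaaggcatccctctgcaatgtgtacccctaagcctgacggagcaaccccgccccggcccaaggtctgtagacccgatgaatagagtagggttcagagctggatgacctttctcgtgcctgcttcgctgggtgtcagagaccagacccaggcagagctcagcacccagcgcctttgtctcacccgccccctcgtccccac
Cdkn2c: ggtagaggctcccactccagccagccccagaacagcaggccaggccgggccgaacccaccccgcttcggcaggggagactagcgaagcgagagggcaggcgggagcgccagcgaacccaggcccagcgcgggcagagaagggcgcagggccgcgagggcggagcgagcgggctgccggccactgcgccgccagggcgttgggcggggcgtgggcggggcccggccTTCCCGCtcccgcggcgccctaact

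GTAAACA occurred in 3.17% of promoters of this length, TTCCCGC in 3.82% and the other E2F form searched, TTGGCGC, in 1.97%, each on both strands. Among promoters of tested genes alone the shares were 2.12%, 7.06% and 3.55%. Among the 11 member promoters they occurred in 1, 1 and 0. With CACGTG counted too, no match was found in those of Ccne1, Cdkn1a, Cdkn1b, Cdkn2d and the second starts of Ccnd3 and Cdkn2c.

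Counts of called members are given beside the background of each comparison, since many genes changed between gates. In Fraction 2 against Fraction 3, 2 of the 9 tested members were higher (Ccnd2, Cdk4) and 1 was lower (Cdkn2d), where 9.17% of all tested genes were higher and 6.45% lower. In Fraction 5 against Fraction 3, 2 were higher (Ccnd2, Cdkn1b) and 4 lower (Ccnd3, Ccne1, Cdk4, Cdk6), beside 9.99% and 19.5%. Against Fraction 2, Fraction 5 had 2 higher (Cdkn1b, Cdkn2d) and 4 lower (Ccnd2, Ccne1, Cdk4, Cdk6), beside 16.6% and 27.1%.

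In Fraction 6 against Fraction 5, 2 members were higher (Ccnd2, Cdkn1b) and 2 lower (Ccnd3, Cdkn2c), beside 7.07% and 10.4%. In Fraction 7 against Fraction 6, 1 was higher (Cdkn1b) and 3 lower (Ccnd3, Cdk4, Cdkn2c), beside 7.37% and 13.9%. In Fraction 7 against LZ, 2 were higher (Ccnd2, Cdkn1b) and 5 lower (Ccnd3, Ccne1, Cdk4, Cdk6, Cdkn2c), beside 24.1% and 38%. Without Fraction 7 libraries 2 and 3, which leaves 1 library in that group, each of these members kept the direction of its change. The median change of the tested members was 0.09, -0.10, -0.19, -0.11, -0.20 and -1.15 in that order, beside 0.04, -0.03, -0.04, -0.00, -0.05 and -0.10 over all genes. Cdkn1a is among the 9 only through its level in Fraction 7. Cdk6 is among them through its levels in LZ and Fractions 2 and 3, the gates against which it was called lower. Quantile normalization moved the share of higher genes among those called from 58.7% to 45.4% for Fraction 2 against 3, from 33.9% to 50.2% for Fraction 5 against 3, from 38% to 52.3% for Fraction 5 against 2, from 34.7% to 45% for Fraction 7 against 6 and from 38.8% to 50% for Fraction 7 against LZ. Median-ratio scaling moved the median of all genes for Fraction 7 against LZ from -0.10 to 0.05. Neither turned the direction of a called member.

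**Figure D4:**
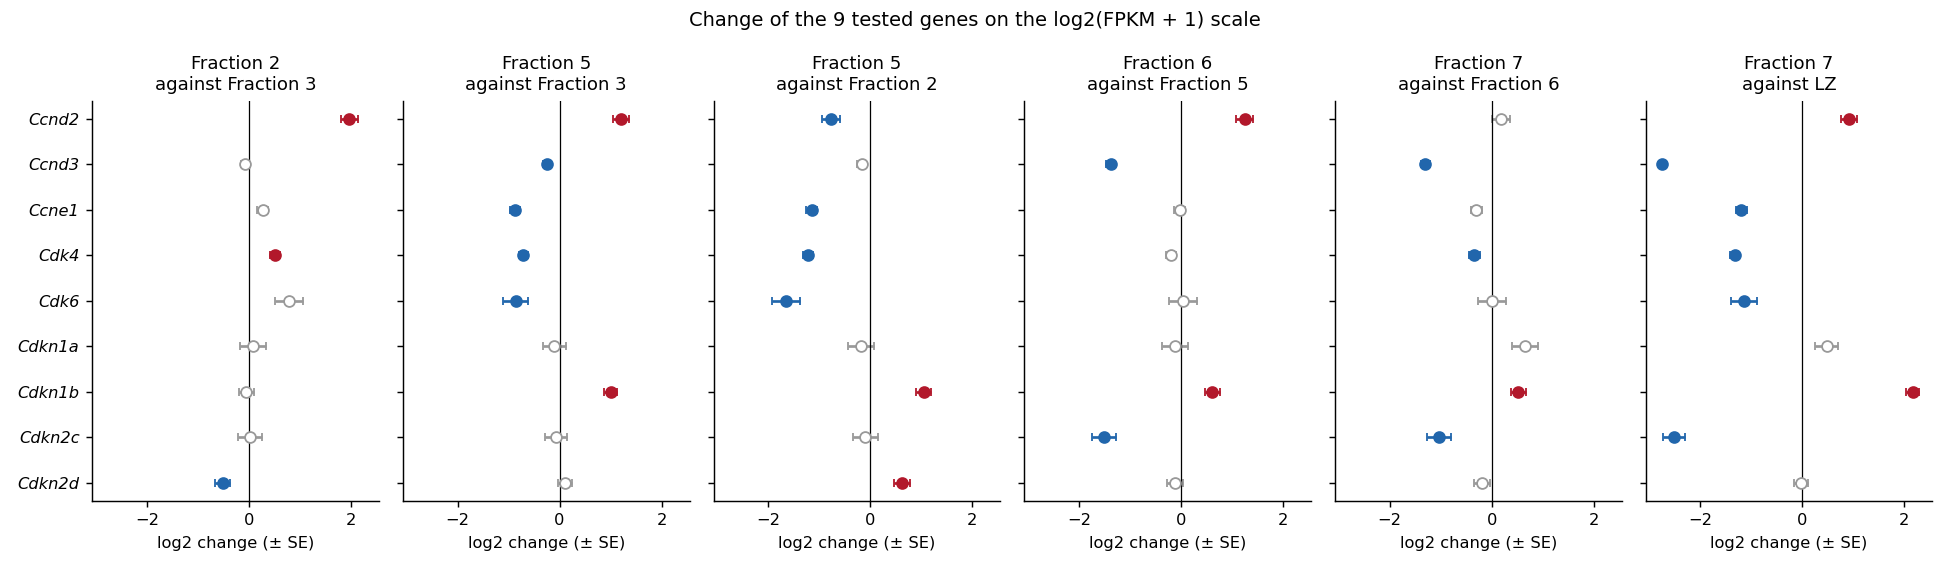
Change of each tested member on the log2(FPKM + 1) scale in the 6 comparisons, with standard errors, coloured where past the adjusted threshold (red higher, blue lower) and open where not. Ccnd3 and Cdkn2c move in the comparisons of Fractions 6 and 7 and Cdkn1b is higher in each comparison with a memory-side gate as the first.

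The wider G1 list held 55 genes, of which 53 could be tested; the inhibitors Cdkn1c and Cdkn2b were listed but below the filter. Of the 53, 8 were higher and 3 lower in Fraction 2 against Fraction 3, 1 and 27 in Fraction 5 against Fraction 3, 6 and 32 in Fraction 5 against Fraction 2, 4 and 23 in Fraction 6 against Fraction 5, 2 and 16 in Fraction 7 against Fraction 6, and 6 and 38 in Fraction 7 against LZ. Over all tested genes the shares higher and lower were, in the same order, 9.17% and 6.45%, 9.99% and 19.5%, 16.6% and 27.1%, 7.07% and 10.4%, 7.37% and 13.9%, and 24.1% and 38%. The 3 lower of 53 in the first comparison and the 4 higher in Fraction 6 against Fraction 5 are near their backgrounds. Bcl6, whose reporter the gates used, is counted among the lower genes in each comparison of Fraction 6 or 7. The medians of the list were 0.15, -0.36, -0.56, -0.29, -0.12 and -0.98, beside those of all genes just given. Without Fraction 7 libraries 2 and 3, which leaves 1 library in that group, the last 2 were -0.12 and -0.84. Those of all genes were then 0.01 and -0.04.

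Of the 3 pocket protein genes, 2 were higher and 1 lower in Fraction 7 against LZ, where 24.1% of all tested genes were higher and 38% lower. Rb1, the retinoblastoma protein, was 3.79 ± 1.19 FPKM in LZ (mean ± SD), 3.52 ± 0.552 in Fraction 5, 6.60 ± 1.19 in Fraction 6 and 14.4 ± 0.366 in Fraction 7. It was higher in Fraction 7 than in LZ by 1.71 ± 0.16 (adjusted p = 4.04e-07) and than in Fraction 6 by 1.03 ± 0.17 (adjusted p = 0.000802). Rbl2, a pocket protein of resting cells, was 9.20 ± 0.990 FPKM in LZ and 15.8 ± 1.33 in Fraction 7 (0.72 ± 0.09, adjusted p = 1.16e-05). Rbl1, which is most abundant in cycling cells, was 23.1 ± 1.11 in LZ and 8.44 ± 1.26 in Fraction 7 (-1.36 ± 0.11, adjusted p = 1.42e-07).

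Of 10 E2F and partner genes, 9 were lower and 0 higher in Fraction 7 against LZ, where 38% of all tested genes were lower, and 6 were lower and 0 higher in Fraction 5 against Fraction 3, beside 19.5%. In Fraction 6 against Fraction 5, 4 were lower, beside 10.4%, and in Fraction 7 against Fraction 6, 5 were lower, beside 13.9%, with 0 higher in both. E2f1, an activator, was 26.6 ± 4.26 FPKM in LZ and 4.86 ± 0.490 in Fraction 7. E2f8, a repressor made in S phase, changed by -3.79 ± 0.10 between those groups (adjusted p = 5.67e-12). Of 9 targets, 8 were lower and 0 higher in each of Fraction 5 against 3, Fraction 6 against 5 and Fraction 7 against LZ, beside 19.5%, 10.4% and 38% of all tested genes lower, with medians of -1.11, -1.14 and -2.71. In Fraction 7 against Fraction 6, 5 were lower and 0 higher, beside 13.9% of all tested genes lower. In Fraction 2 against Fraction 3, 1 was higher and 0 lower, near the 9.17% and 6.45% of all tested genes. Pcna, the clamp of DNA polymerases, was 391 ± 16.6 FPKM in LZ and 59.4 ± 3.82 in Fraction 7. E2f2 had another order. It was 47.9 ± 1.18 FPKM in Fraction 5 and 46.2 ± 1.04 in Fraction 6. LZ had 39.9 ± 3.01, Fraction 3 had 44.4 ± 2.89 and Fraction 2 had 33.9 ± 0.376. Fraction 5 was higher than Fraction 2 (0.49 ± 0.07, adjusted p = 0.000126), and its 0.11 against Fraction 3 did not pass (adjusted p = 0.227). E2f2 was lower in Fraction 7 than in Fraction 6 (-0.84 ± 0.07, adjusted p = 3.55e-06) and than in LZ (-0.63 ± 0.07, adjusted p = 1.48e-06).

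Of the 7 kinases, cyclins and activators, 5 were lower in Fraction 5 against Fraction 3 and 6 in Fraction 7 against LZ, beside 19.5% and 38% of all tested genes, with 0 higher in both. Cdk2, the partner of Ccne1, was 44.9 ± 3.29 FPKM in LZ, 31.7 ± 3.22 in Fraction 5, 21.7 ± 2.30 in Fraction 6 and 18.2 ± 1.71 in Fraction 7. Ccne2, the second E cyclin gene, was 6.31 ± 0.273, 3.00 ± 0.557, 0.645 ± 0.0397 and 0.557 ± 0.0637 FPKM in the same order. Unlike Ccne1, which differed by -0.03 between Fractions 5 and 6, Ccne2 was lower in Fraction 6 (-1.27 ± 0.15, adjusted p = 4.40e-05), and the difference between these changes was not tested.

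Among 12 ubiquitin ligase parts, 3 were higher and 0 lower in Fraction 2 against Fraction 3, beside 9.17% and 6.45% of all tested genes. In Fraction 7 against LZ 1 was higher and 8 lower, beside 24.1% and 38%. Skp2, which marks p27 for degradation, was 9.22 ± 0.323 FPKM in Fraction 2, 5.67 ± 0.634 in Fraction 3, 3.07 ± 0.614 in Fraction 5, 1.86 ± 0.205 in Fraction 6 and 1.44 ± 0.395 in Fraction 7. It was higher in Fraction 2 than in Fraction 3 (0.62 ± 0.16, adjusted p = 0.0199), a pair in which Cdkn1b mRNA differed by -0.05 (adjusted p = 0.867). It was lower in Fraction 5 than in Fraction 3 (-0.72 ± 0.14, adjusted p = 0.00200).

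Of 11 upstream regulators, 3 were higher and 5 lower in Fraction 7 against LZ, shares close to the 24.1% and 38% of all tested genes. The 5 include Bcl6, whose reporter the gates used. Myc, an activator of cyclin and kinase genes, was 35.3 ± 4.31 FPKM in LZ, 50.003 ± 6.56 in Fraction 2, 24.4 ± 2.97 in Fraction 3, 15.8 ± 2.50 in Fraction 5, 24.3 ± 1.67 in Fraction 6 and 31.3 ± 0.920 in Fraction 7. It was higher in Fraction 2 than in Fraction 3 (1.01 ± 0.13, adjusted p = 0.000787), lower in Fraction 5 than in Fraction 3 (-0.60 ± 0.12, adjusted p = 0.00229) and higher in Fraction 6 than in Fraction 5 (0.60 ± 0.13, adjusted p = 0.00682). Foxo3, a forkhead factor that can activate Cdkn1b, was 2.75 ± 0.328 FPKM in LZ and 9.45 ± 2.13 in Fraction 7 (1.46 ± 0.14, adjusted p = 6.72e-07). Foxo1, its relative, was 31.5 ± 0.390 in LZ, 42.9 ± 5.12 in Fraction 5 and 16.6 ± 3.43 in Fraction 7, and was lower in Fraction 7 than in LZ (-0.91 ± 0.12, adjusted p = 1.59e-05). Bcl6 was 165 ± 11.1 FPKM in LZ and 17.98 ± 2.77 in Fraction 7, and since the gates used its reporter this is no finding.

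**Figure D5:**
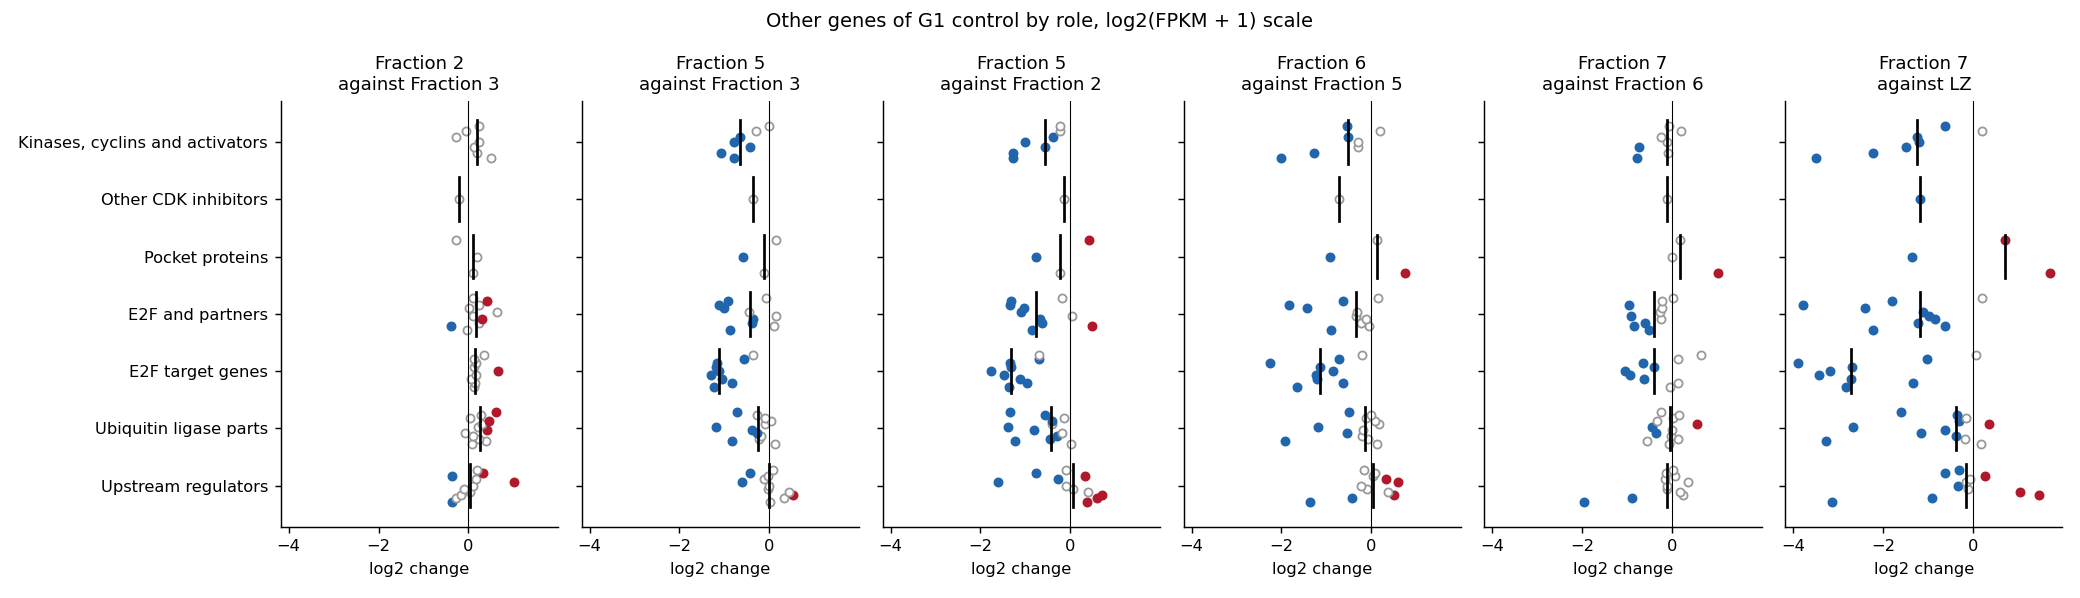
Change of each gene of the wider G1 list in the 6 comparisons, in rows by role, with a black bar at the median of each group, coloured where past the adjusted threshold (red higher, blue lower). In Fraction 7 against LZ the E2F targets have a median of -2.71, the lowest of the groups there.

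Genes with the closest profile over the 16 libraries, by root mean square difference of centred log2(FPKM + 1), were Dck and Tox for Ccnd3 (0.0877 and 0.202), Arid5a and Irf4 for Ccnd2 (0.436 and 0.446), Phf5a and Mrpl42 for Ccne1 (0.0818 and 0.0949), and Eif4a1 and Prmt1 for Cdk4 (0.0821 and 0.0992). For Cdk6 they were Thop1 and Aimp2 (0.177 and 0.181), for Cdkn1b Lrrc16a and Sesn1 (both 0.152), and for Cdkn2c Hemgn (0.223). The distance for Ccnd2 was the widest of these 7 members. These are descriptions with no test.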

How the data were processed

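Per the submitters' processing notes, the authors used TopHat2 2.0.8, Cufflinks 2.1.1 and mm9 and deposited FPKM per gene. Per the labels' protocols, libraries came from sorted cells with a NEBNext Ultra RNA kit, which keeps no strand. FPKM are not counts, so count tools were not used. The table held 23234 named genes, and 1 unnamed row was dropped. Members and gene lists were chosen with earlier results of these data known. Genes that reached 1 FPKM in 2 or more libraries (11266) were set to log2(FPKM + 1). limma 3.58.1 in R 4.3.3 fitted 6 group means over 16 libraries with a variance trend, with Benjamini-Hochberg adjustment inside every comparison and calls at 0.05. The fit was run on simulated data with independent normal noise, where 200 genes of mean log2(FPKM + 1) above 2 were changed by 1. It recovered 94.5% to 98% of these and called 6 to 10 unchanged genes per comparison. That setting does not cover libraries from a shared pool or low genes such as Cdk6 and Cdkn1a. Named genes were the 10 members, up to 3 genes of each pathway group per comparison by smallest adjusted p, 10 pathway genes whatever their values, and the 2 nearest profiles. Of these the text gives a part, and 1 gene that the rule gives is not reported here. Promoters are 250 bases of RefSeq on GRCm38.p6, and overlaps of exons came from GENCODE. Alternatives were a pseudocount of 0.1, quantile normalization, no filter, a filter of 5 FPKM, median-ratio scaling, a fit to the groups compared, the replicate block and each library left out. Leaving out Fraction 7 libraries 2 and 3 was chosen after seeing the data. Figures used Python 3.11.15, pandas 2.3.3, numpy 2.4.6 and matplotlib 3.10.9.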

Additional observations from a re-analysis of the deposited data

How the results depend on the processing

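Of 54 results of a member in a comparison, 30 passed the threshold, and 22 of these kept their call under every alternative in which they were tested while 8 lost it under at least 1; 0 reversed. Cdk6 and Cdkn1a were not tested under the filter of 5 FPKM. The 8 were Cdk4 and Cdkn2d in Fraction 2 against Fraction 3, Ccnd3 and Cdk6 in Fraction 5 against Fraction 3, Cdkn1b in Fraction 6 against Fraction 5, and Cdk4, Cdkn1b and Cdkn2c in Fraction 7 against Fraction 6. With only the groups compared in the fit, 1 member passed in Fraction 7 against Fraction 6 in place of 4; fewer libraries then estimate the spread. Leaving out 1 library in turn, the members called numbered 1 to 4 in Fraction 2 against Fraction 3 (1 without Fraction 2 library 1) and 4 to 6 in Fraction 5 against Fraction 3. They numbered 6 to 6 in Fraction 5 against Fraction 2 and 3 to 4 in Fraction 6 against Fraction 5. Fraction 7 had 2 to 4 against Fraction 6 (2 without Fraction 7 library 1) and 7 to 8 against LZ. Over all genes tested, with only the groups compared in the fit, Fraction 2 against Fraction 3 gave 1108 calls in place of 1760, and Fraction 7 against Fraction 6 gave 1248 in place of 2393. Without Fraction 2 library 1 or 2, or Fraction 3 library 3, the first gave 710, 660 and 950. Without Fraction 6 library 1 or 2, Fraction 6 against Fraction 5 gave 1152 and 1170 in place of 1968, and Fraction 7 against Fraction 6 gave 1561 and 1334, or 1589 without Fraction 7 libraries 2 and 3. Cdkn1a passed in Fraction 7 against LZ under median-ratio scaling (adjusted p = 0.0447) and without LZ library 1 (adjusted p = 0.0413), and Cdk6 in Fraction 2 against Fraction 3 without Fraction 5 library 2 (adjusted p = 0.0330). Deviations of same-numbered libraries correlated between -0.136 and 0.125, and those of differently numbered ones between -0.147 and 0.147. With 2 or 3 libraries in a group, this cannot tell whether a number marks a shared pool, and no label says so. The numbers were therefore not used as pairs. With the replicate block the counts were 2, 6, 6, 4, 4 and 7, the 1 lost call being Cdkn2d in Fraction 2 against Fraction 3 (adjusted p = 0.0576). The number of reads behind each value is unknown, so values of low genes such as Ccnd1, Cdk6 and Cdkn1a have no counting error attached.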
